A study of Homo sapiens with 2 samples.

Results

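The ZEB, SNAI and TWIST transcription factors were compared between the 2 substates of H9 cells, an established human embryonic stem cell line that is grown as an undifferentiated culture. The group holds 7 genes, which were taken by name as the classical drivers of the epithelial-to-mesenchymal transition: ZEB1 (chromosome 10), ZEB2 and TWIST2 (both chromosome 2), SNAI1 (chromosome 20), SNAI2 (chromosome 8), SNAI3 (chromosome 16) and TWIST1 (chromosome 7). All non-control probes whose RefSeq accession belongs to 1 of these genes were used, which gave 12 of the 58201 probes of the array. ZEB2 had 3 probes, ZEB1, TWIST1 and TWIST2 had 2 each, and every SNAI gene had 1. The cells of substate 1 were at passage 35 and those of substate 2 at passage 50. The study moved H9 cells in TeSR-E8 medium from vitronectin to Matrigel, a basement membrane extract, at passage 35. It described both substates on Matrigel, but does not say how long the cells of each array had grown on it. The study had separated the substates by the staining of their colonies, with a strong signal for the R-10G epitope, a pluripotency mark, and no vimentin in substate 1, and a weaker epitope with vimentin in substate 2. One Agilent array was hybridised per substate, from 1 cell line, so the substates could not be tested against each other and no difference has a replicate check. Substate cannot be told apart from passage, or from any difference in the matrix or the time on it.

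ZEB1 and ZEB2 are large zinc finger repressors that bind E-box sequences through a cluster of fingers at each end of the protein. SNAI1, SNAI2 (Slug) and SNAI3 carry a single cluster of zinc fingers and a short repressor domain at their start, and they bind overlapping E-boxes. TWIST1 and TWIST2 are basic helix-loop-helix factors that bind E-boxes as dimers with E proteins. In embryos these factors let epithelial cells leave their layer, as in gastrulation and in the neural crest, and ZEB2 is also known for its part in the formation of neural ectoderm. Human embryonic stem cells are epithelial and hold E-cadherin at their junctions, and the E-cadherin gene is a known target of repression by ZEB and SNAI factors.

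The labelled cell type was checked first. Of 12 genes fixed as marks of pluripotent cells, 10 had a matched probe, and all 10 were well above background on both arrays, with a median difference of 0.18 on the log2 scale (substate 2 minus substate 1), which became -0.01 with loess centring. The probe signal cleared background, by the scanner's flag for signals well above it, at 55.4% of probes for substate 1 and 52.7% for substate 2, with no saturated probe. Signals are given below in scanner units, with the error that the scanner's error model attaches to the spot. Normalised signals are log2 values relative to the 75th percentile of the same array, which was 313.3 scanner units for substate 1 and 275.1 for substate 2. Each of the 12 probes was printed as 1 spot. Across probes printed 10 times or more, the median SD between spots was 0.046 (substate 1) and 0.052 (substate 2) on the log2 scale, so the scanner's errors used here are larger than the spread between spots. Neither error takes in variation between cultures, RNA extracts or labelling reactions.

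E-boxes are the sequences that the members read, and 5 promoter windows are printed here because they hold or lack the E-box CAGGTG, read on the other strand as CACCTG, which is the form that ZEB and SNAI proteins are best known to bind. Each window runs from 250 bases before to 50 bases after a start of transcription (RefSeq, GRCh38.p14), is written 5′ to 3′ along the gene, and shows each copy on either strand in capitals. The windows are those of ZEB1 around its start with the most copies (chr10:31318966-31319265, plus strand), ZEB2 (chr2:144520070-144520369, minus strand), and 3 genes from a list of 20 epithelial genes that ZEB and SNAI factors are known to repress: CRB3 (chr19:6464021-6464320, plus strand), CLDN7 (chr17:7262429-7262728, minus strand) and CLDN4 (chr7:73830746-73831045, plus strand). These windows were chosen after the motif had been counted.
ZEB1: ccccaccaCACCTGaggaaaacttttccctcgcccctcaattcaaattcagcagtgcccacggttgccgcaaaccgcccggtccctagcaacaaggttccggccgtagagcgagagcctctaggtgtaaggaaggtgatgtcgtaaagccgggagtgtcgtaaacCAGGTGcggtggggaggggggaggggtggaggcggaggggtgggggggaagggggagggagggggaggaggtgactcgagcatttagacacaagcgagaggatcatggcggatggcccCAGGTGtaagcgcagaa
ZEB2: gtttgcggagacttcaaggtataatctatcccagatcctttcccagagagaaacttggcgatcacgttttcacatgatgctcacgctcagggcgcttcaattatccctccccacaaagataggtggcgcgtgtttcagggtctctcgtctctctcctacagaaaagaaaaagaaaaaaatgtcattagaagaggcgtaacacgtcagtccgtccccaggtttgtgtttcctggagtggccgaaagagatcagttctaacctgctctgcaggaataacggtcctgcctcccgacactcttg
CRB3: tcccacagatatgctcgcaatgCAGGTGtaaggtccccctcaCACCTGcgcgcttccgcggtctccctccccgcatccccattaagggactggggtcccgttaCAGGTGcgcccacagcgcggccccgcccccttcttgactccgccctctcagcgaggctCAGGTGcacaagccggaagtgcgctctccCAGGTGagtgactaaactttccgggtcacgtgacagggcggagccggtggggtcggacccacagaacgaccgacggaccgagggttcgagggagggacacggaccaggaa
CLDN7: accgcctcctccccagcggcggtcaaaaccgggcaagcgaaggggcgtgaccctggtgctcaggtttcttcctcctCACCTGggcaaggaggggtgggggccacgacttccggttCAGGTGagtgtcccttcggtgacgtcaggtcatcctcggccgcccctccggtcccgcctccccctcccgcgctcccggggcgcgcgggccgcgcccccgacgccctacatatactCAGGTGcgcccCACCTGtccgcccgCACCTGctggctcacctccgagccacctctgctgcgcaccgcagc
CLDN4: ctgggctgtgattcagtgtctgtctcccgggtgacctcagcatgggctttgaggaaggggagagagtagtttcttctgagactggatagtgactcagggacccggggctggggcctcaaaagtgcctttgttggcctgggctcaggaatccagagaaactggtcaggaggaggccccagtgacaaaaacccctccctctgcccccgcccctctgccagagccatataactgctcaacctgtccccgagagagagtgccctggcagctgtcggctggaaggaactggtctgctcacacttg

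The window of ZEB1 held 3 copies of CAGGTG, and 2 of the 7 ZEB1 windows in the table held at least 1. The windows of ZEB2 and TWIST2 held none. Windows of SNAI1, SNAI2, SNAI3 and TWIST1 were not used here. Over all 35116 windows of this length, 20.6% held CAGGTG and 68.7% held the looser E-box CANNTG, which includes it. Of the 20 epithelial genes, 10 had a window, and 8 of these 10 genes had CAGGTG in 1 or more windows, against 24.1% of all genes with a window. CRB3 had 5 copies, CLDN7 had 5 in the printed window and 0 in its other window, and CLDN4 and MARVELD2 had none. These genes are known as targets partly because of such E-boxes, so the share describes the list and is no evidence of binding in these cells.

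ZEB1 was higher in substate 2 by both of its probes. Its probe A_33_P3374723 read 148.6 ± 15.2 scanner units (error of 1 spot) in substate 1 and 692.8 ± 69.4 in substate 2. After normalisation this was a 5.31-fold difference (2.41 ± 0.21 on the log2 scale). Its probe A_33_P3640690 read 25.7 ± 4.62 in substate 1 and 143.3 ± 14.9 in substate 2, a 6.35-fold difference (2.67 ± 0.30). Both probes were well above background on both arrays, and for each of them the gap between the arrays was many times the scanner's error. The differences of the 2 probes lay within their combined error of each other.

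ZEB2, the closest relative of ZEB1, was well above background in substate 2 alone, with all 3 of its probes. By the scanner's flag for a positive and significant signal, A_23_P142560 and A_33_P3243832 also had signal in substate 1. The probe A_23_P142560 read 4.36 ± 3.98 scanner units in substate 1, about the size of its error, and 68.4 ± 8.11 in substate 2. Before errors are taken in, this places it at least 5.39-fold higher in substate 2. The probe A_33_P3243832 read 7.20 ± 3.48 in substate 1 and 36.4 ± 5.14 in substate 2, at least 2.87-fold higher. The probe A_21_P0000590, designed on a noncoding transcript of the gene, read 3.35 ± 3.36 in substate 1 and 23.1 ± 4.33 in substate 2, at least 1.82-fold higher. Each bound sets the bright signal against the lowest signal that the substate 1 array still called well above background, since the ZEB2 probes read less than that there. The 3 bounds follow the brightness of the probes in substate 2, since the dim side was at the floor each time, and they are no ranking of the transcripts. With normexp background correction, which adds an offset to all signals, the largest bound was 1.85-fold and no ZEB2 probe was past 2-fold.

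**Figure D1:**
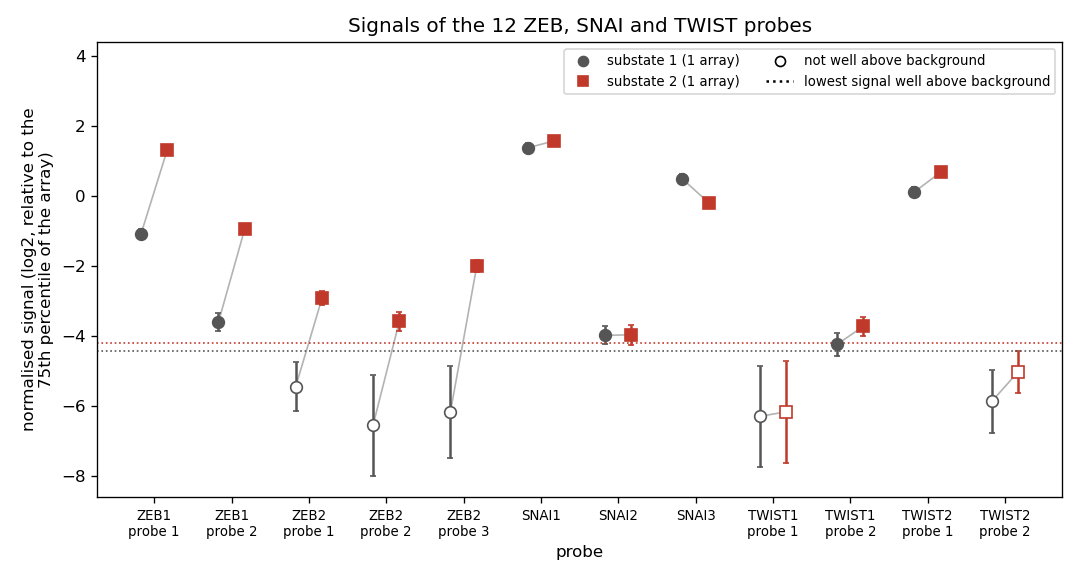
Normalised signal (log2, relative to the 75th percentile of the array) of each of the 12 probes on the substate 1 array (grey circles) and the substate 2 array (red squares), with bars for the scanner's error of the spot and open symbols where a probe was not well above background. Both ZEB1 probes and all 3 ZEB2 probes sit higher on the substate 2 array, whereas the other probes lie within 1 log2 unit of each other on the 2 arrays.

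The SNAI genes did not share one direction. SNAI1, the family member most often tied to the first steps of the transition, read 818.5 ± 81.9 scanner units in substate 1 and 823.1 ± 82.4 in substate 2, a normalised difference of 0.20 ± 0.20. SNAI2, which marks migrating neural crest, read 19.9 ± 3.58 and 17.7 ± 3.58, a difference of 0.02 ± 0.39. For both genes the difference was no larger than the scanner's error. The signal of SNAI2 was close to background on both arrays, so a change of up to 0.80 on the log2 scale in favour of substate 2, or of -0.77 against it, lies within 2 errors. SNAI3, the least studied of them, read 441.3 ± 44.2 in substate 1 and 241.6 ± 24.3 in substate 2, so it was 1.60-fold lower in substate 2 (-0.68 ± 0.21). It was the only member measured on both arrays that was lower in substate 2, by more than 2 errors but less than 2-fold. Its Z-score, explained below, was -1.19, and it passed -2 under 2 of the alternatives, at -2.85 and -2.33.

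Of the TWIST genes, TWIST2 (Dermo1), known from dermal and bone precursors, read 341.3 ± 34.2 scanner units in substate 1 and 444.9 ± 44.6 in substate 2 by its bright probe A_23_P21324, which was 1.48-fold higher in substate 2 (0.57 ± 0.20). Its other probe, A_19_P00322911, was not well above background on either array, with 5.38 ± 3.37 and 8.46 ± 3.56. TWIST1, known from cranial mesenchyme, read 16.6 ± 3.71 in substate 1 and 20.9 ± 4.01 in substate 2 by its probe A_33_P3414591, a difference of 0.52 ± 0.42. The other TWIST1 probe, A_23_P71073, was near background, with 3.98 ± 3.99 and 3.84 ± 3.86. So 1 probe of each TWIST gene leaned toward substate 2, TWIST2 by more than 2 errors and TWIST1 within them.

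Of the 12 member probes, 7 were well above background on both arrays, 3 on the substate 2 array only and 2 on neither. By the Z-score of the study, in which each difference is centred on the mean over all probes and divided by their SD (0.63 on the log2 scale), 5 of the 12 probes lay above the limit of 2, where 3.03% of 58078 probes did. These were the 2 probes of ZEB1 (3.69 and 4.10) and the 3 probes of ZEB2 (3.88, 4.58 and 6.46). None lay below the lower limit, where 3.30% of all probes did. The ZEB2 scores use substate 1 signals that were not well above background, so their size is not a measured fold. By a limit of 2-fold, with bounds counted, 4 of the 10 member probes that were well above background on at least 1 array were higher in substate 2 and 0 were lower, against 1.54% and 1.66% of the 33148 such probes. The probe past the Z-score limit but not past 2-fold was that of the noncoding ZEB2 transcript. Members were chosen with earlier results of these arrays known, so these counts describe the group and support nothing further.

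Among the 6 members measured on both arrays, the order of the differences was ZEB1 (2.54 ± 0.18, mean of 2 probes), TWIST2, TWIST1, SNAI1, SNAI2 and SNAI3. The step from ZEB1 to TWIST2 was 1.97 ± 0.27 on the log2 scale, 7.19 times its error. The next steps, from TWIST2 to TWIST1, from TWIST1 to SNAI1 and from SNAI1 to SNAI2, were each smaller than their errors, and the step from SNAI2 to SNAI3 was 0.70 ± 0.44. The gaps from TWIST2 and from SNAI1 to SNAI3 were 1.25 ± 0.29 and 0.88 ± 0.29. By the scanner's errors alone, ZEB1 stood apart from every other measured member, and SNAI3 from all but SNAI2, by more than 2 errors. The others could not be ordered. Since these errors leave out variation between cultures, the order describes these 2 arrays only.

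Placed among all 15975 genes measured on both arrays, whose differences had a median of 0.08 and an SD of 0.38, ZEB1 was the gene with rank 10 from the top. TWIST2 had rank 756 (above 95.3% of genes) and TWIST1 rank 1015 (above 93.6%). SNAI1 lay above 64.2% of genes and SNAI2 above 42.1%, near the middle. SNAI3 was near the other end, with rank 561 from the bottom. At the gene level 2 of the 7 members, ZEB1 and ZEB2, passed 2-fold on the side of substate 2 and 0 passed it on the other, where 1.43% of 16836 genes with a value or a bound were higher and 1.31% were lower.

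**Figure D2:**
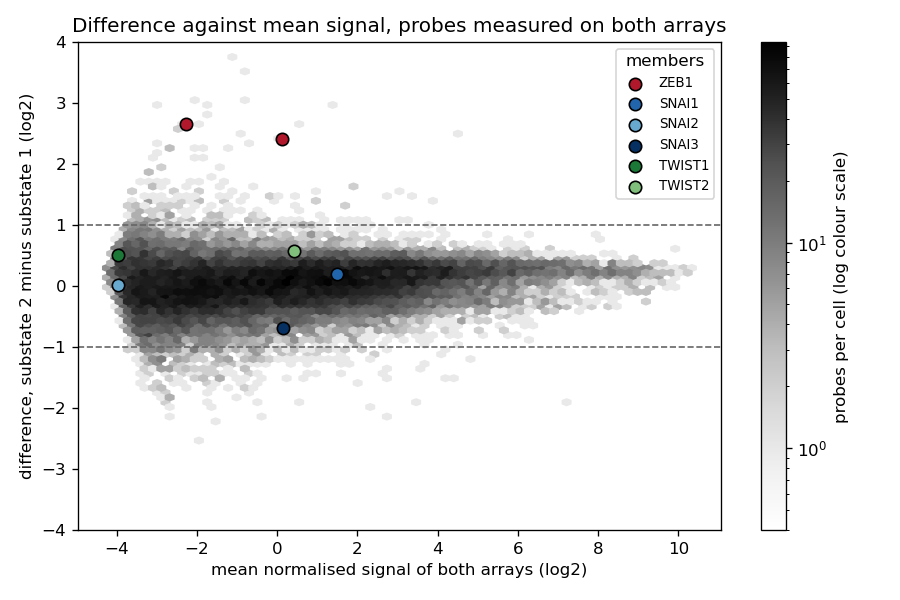
Difference (substate 2 minus substate 1, log2) against the mean normalised signal of both arrays (log2) for 29810 probes measured on both arrays (grey cells, darker where more probes lie), with 1 further probe outside the axis, and the 7 member probes in colour. The 2 ZEB1 probes lie near the upper edge, with ranks 16 and 9 from the top among probes measured on both arrays. The SNAI and TWIST probes lie inside the dashed lines at 2-fold.

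The genes whose difference was nearest to that of ZEB1 were LOC283731 (2.53), VIM (2.52), PAX8 (2.61), SLC24A2 (2.66) and LHX5-AS1 (2.37). Each rested on 1 probe measured on both arrays. Likeness here is the gap between 2 differences over 2 arrays, so it is only a shared size of change. VIM encodes vimentin, the intermediate filament of mesenchymal and neural progenitor cells by which the substates had been told apart, and its probe read 2802 ± 280.2 scanner units in substate 1 and 14157 ± 1416 in substate 2.

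Both ZEB genes have an antisense neighbour that starts beside them, and SNAI3 has an antisense gene named after it. In the RefSeq table (GRCh38.p14) the closest starts of ZEB1 and ZEB1-AS1 lie 107 bases apart, on opposite strands. ZEB1-AS1 read 157.9 ± 16.1 scanner units in substate 1 and 169.0 ± 17.2 in substate 2 by 1 probe, and 26.5 ± 4.34 and 30.9 ± 4.77 by the other. Its differences of 0.29 ± 0.21 and 0.41 ± 0.32 were within 2 errors of 0, whereas those of ZEB1 were 2.41 and 2.67. The single probe of ZEB2-AS1 was near background on both arrays, at 3.14 ± 3.15 and 4.72 ± 3.40. The 4 probes of SNAI3-AS1 ran from -0.61 ± 0.23 to 0.51 ± 0.22, with -0.13 ± 0.24 and -0.09 ± 0.21 between them, so they showed no common direction beside the lower SNAI3. Hosts of the microRNAs miR-200 and miR-205, which are known to repress ZEB1 and ZEB2, had no matched probe and were not analysed here.

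The epithelial genes that ZEB and SNAI factors are known to repress were lower in substate 2 almost throughout. All 20 genes of the list were measured on both arrays and 19 were lower, where 40.3% of all 15975 measured genes were lower. The median difference was -0.72, beside 0.08 for all genes. Of these 20 genes 3 were past 2-fold lower, where 1.31% of all genes were. The list was written with earlier results of these arrays known, so these counts only describe it. Whether ZEB or SNAI factors repress these genes here was not tested. CDH1 (E-cadherin), whose probe was printed 10 times, was 2.78-fold lower, at 9463 ± 946.3 scanner units in substate 1 and 2993 ± 299.3 in substate 2. The tight junction genes CLDN4 and CLDN7 were 2.51-fold and 2.49-fold lower. EPCAM, a surface adhesion molecule, was 1.74-fold lower, CRB3, a polarity protein, was 1.84-fold lower, and PKP3, a desmosomal plaque protein, differed by 0.09.

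A group of transcription factors that hold cells in the epithelial state, several of which are known to oppose ZEB genes, was less complete on these arrays. Of 15 genes 7 were measured on both arrays and 6 were near background on both, 1 had no matched probe, and KLF4 cleared background in substate 1 only, too close to it for a fold. The measured genes had a median difference of -0.42, or -0.27 with normexp background correction. OVOL1 was 2.64-fold lower in substate 2, and GRHL2, a grainyhead factor that represses ZEB1, was 2.18-fold lower. FOXA2 (0.77) and ELF3 (0.14) lay on the other side.

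Mesenchymal effector genes showed no common shift. Of 24 genes 19 were measured on both arrays, 9 were higher and 10 lower, and the median was -0.02, which changed sign with the scaling. VIM, whose protein had served to tell the substates apart, was the only gene past 2-fold. Of all genes, 1.43% were past 2-fold higher and 1.31% lower. CDH2 (N-cadherin) was 1.76-fold and 1.77-fold higher by its 2 probes. FN1 (fibronectin) went the opposite way by 1 probe, designed on 1 transcript of the gene. This probe read 26.6 ± 4.12 scanner units in substate 1 and 11.1 ± 3.56 in substate 2. It was well above background on the substate 1 array alone. Before errors are taken in, this puts its signal at least 1.55-fold lower in substate 2. The collagen genes COL1A1 (-0.49) and COL1A2 (-0.50), the matrix protein gene SPARC (-0.73) and the smooth muscle gene TAGLN (-0.69) were also lower, inside 2-fold.

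**Figure D3:**
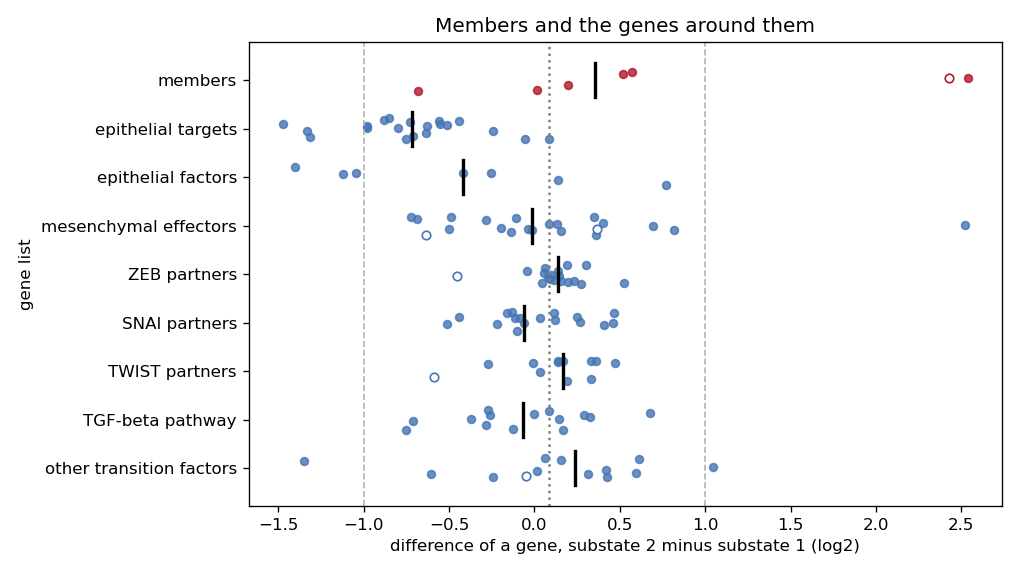
Difference of each gene (substate 2 minus substate 1, log2) for the members and 8 lists of genes around them, with filled points for genes measured on both arrays, open points for bounds, a black bar at the median of the filled points, a dotted line at the median of all genes (0.08) and dashed lines at 2-fold. The epithelial targets lie to the left, the mesenchymal effectors straddle the dotted line apart from VIM at 2.52, and partners of the 3 families cluster near it.

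Transcripts of proteins that work with the members differed by less than 2-fold wherever they were measured. Among 18 partners of ZEB proteins, 17 were measured on both arrays with a median difference of 0.14, and 0 were past 2-fold. The corepressors CTBP1 and CTBP2, which both ZEB proteins are known to recruit, differed by 0.19 and 0.10 as means over 2 and 3 probes. Of 18 SNAI partners, kinases and ubiquitin ligases, 17 were measured, with a median of -0.06 and 0 past 2-fold. Of 14 TWIST partners and inhibitors, 11 were measured, with a median of 0.17 and 0 past 2-fold, while HAND1 and HAND2 were near background on both arrays. KAT2B of the ZEB list and RUNX2 of the TWIST list cleared background in substate 1 only. The E proteins TCF3 (0.14), TCF4 (0.14) and TCF12 (0.19) and the inhibitor genes ID1 (0.47), ID2 (0.17), ID3 (0.33) and ID4 (0.33) lay inside 2-fold. All were above 0, as were 9545 of all 15975 measured genes, whose median was 0.08. The median of the TWIST list became 0.09 with quantile normalisation and 0.08 with loess centring, beside 0.05 and 0.03 for all genes. The TGF-beta list, which holds the best known inducers of these factors, had 14 of 16 genes measured, a median of -0.06, which changed sign with the processing, and 0 genes past 2-fold, and TGFB2 and TGFB3 were near background on both arrays.

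Of 22 other transcription factors of the transition 12 were measured on both arrays, 9 of them higher and 3 lower, and 9 were near background on both. The median was 0.24, or 0.15 with the 1 gene that had a bound, beside 0.08 for all genes. Of all 15975 measured genes 9545 were higher. LEF1, a partner of beta-catenin, was 2.06-fold higher in substate 2 and KLF8 was 2.54-fold lower. PRRX1, FOXC2, GSC and TBXT (brachyury) were among those near background on both arrays.

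Markers of other cells that the cultures could hold were read beside these results. For the neural ectoderm list the number of genes well above background was 15 of 22 in substate 1 and 18 in substate 2, and the summed normalised signal of substate 2 was 1.18 times that of substate 1. Its genes past 2-fold were GBX2 (7.82-fold), LHX2 (5.01-fold), MAP2 (2.04-fold) and POU3F2 (13.3-fold), all higher in substate 2. POU3F2 read 14.9 ± 3.46 scanner units in substate 1, not well above background, and 173.6 ± 17.7 in substate 2. Its fold is the plain difference (3.73 ± 0.37 on the log2 scale) and no lower limit. PAX6 was near background on both arrays. The median of the 15 measured genes of the list was 0.16, beside 0.08 for all genes, of which 1.43% were past 2-fold higher. Another 4 of the 15 were lower in substate 2, OTX1 by 1.85-fold, and POU3F1 (-0.15), OTX2 (-0.04) and ZIC5 (-0.02) by little. The neural crest list had 11 of 15 genes above background in substate 1 and 10 in substate 2, with TFAP2A and PAX3 near background on both, and TFAP2C was 3.62-fold lower. The summed signal of substate 2 over substate 1 was 1.01 for the neural crest list, 0.794 for mesendoderm and 0.930 for stroma. Such a sum follows the brightest genes, which were KDR (1.64-fold lower) for mesendoderm and THY1 (-0.11) for stroma. Of the 6 measured mesendoderm genes 3 were higher and 3 lower, with a median of 0.08, the same as for all genes. Of the 8 measured stromal genes 5 were higher and 3 lower, with a median of 0.14. The mesendoderm list had 8 of 18 and 7 of 18, with TBXT, EOMES, MIXL1 and SOX17 near background on both. MESP1 read 17.2 ± 4.09 scanner units in substate 1, not well above background, and 33.3 ± 5.45 in substate 2. This was a 2.21-fold higher signal in substate 2 (1.14 ± 0.42), which is also no lower limit. The stromal list had 8 of 14 on each array, with COL3A1, DCN, LUM and POSTN near background on both and COL1A1 and COL1A2 well above it on both. TWIST2 is itself on the stromal list. Whether the neural genes have a part in the higher ZEB1 and ZEB2 signals was not tested. In bulk RNA, more cells of a type and more RNA per cell cannot be told apart.

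**Figure D4:**
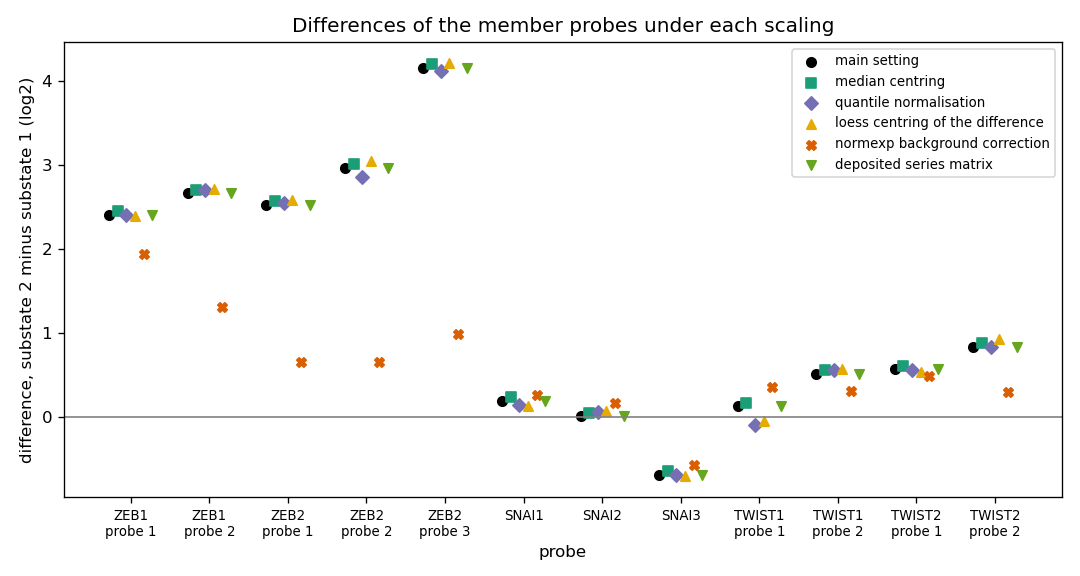
Difference (substate 2 minus substate 1, log2) of each of the 12 member probes under the main setting and 5 other ways to scale or correct the arrays. The symbols of a probe nearly coincide except for normexp background correction (orange crosses), under which the ZEB1 probes lie at 1.94 and 1.31 and the ZEB2 probes at 0.99, 0.66 and 0.66.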

How the data were processed

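The authors deposited the scanner output of 2 single-colour Agilent arrays, in which each spot has an intensity, and a series matrix of log2 values. Per the file headers, the intensity was background-subtracted and detrended by Feature Extraction 11.5.1.1 (protocol GE1_1105_Oct12). The authors' log2 values were, per their methods, floored at 1 and shifted by the 75th percentile of each array. They matched the values computed here up to a constant per array, within 0.01, for over 99.9% of 58086 probes.

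Here the log2 processed intensity, floored at 1, was averaged over spots not marked as outliers and the 75th percentile of the array was subtracted (Python 3.11.15, pandas 2.3.3). Of 58201 probes, 123 had no such spot on at least 1 array. Quantile normalisation, loess and normexp were run in limma 3.58.1 (R 4.3.3). The scanner errors of both arrays were combined on the log2 scale. A gene is the mean of its probes measured on both arrays, otherwise its largest bound. Where the dim signal exceeded the lowest signal called well above background, as for POU3F2 and MESP1, the bound is the plain difference. Probes were named through RefSeq accessions without version (GRCh38.p14, 31104 probes matched). The array was annotated on hg19, so no probe coordinates are given. Promoter windows are from RefSeq, GRCh38.p14. The functions were tested on simulated data.

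The members, the 14 gene lists and the rule for genes to be named were chosen with earlier results of these data known. The rule took all 7 members, at most 4 genes in each direction past 2-fold per list, a few fixed genes and the 5 genes nearest to ZEB1; other genes named were chosen after their values were seen, and 1 gene that the rule took is not reported here. With 1 array per group there was no test. Files had no mean spot signal, so normexp used median signals.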

Additional observations from a re-analysis of the deposited data

How the results depend on the processing

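No paired analysis was possible because there was a single array for each substate, without any test. Naming probes by a gene name column was not run, since the scanner files used here hold none. Under median centring, quantile normalisation, loess centring, the deposited series matrix and kept outlier spots, the counts of member probes stayed at 5 above the Z-score limit and 0 below it, and at 4 past 2-fold higher and 0 lower. A constant shift moves no Z-score, and no member spot was an outlier. A Z-score over probes measured on both arrays added the dim TWIST2 probe (6 higher), and 5 probes were past 2-fold higher with no filter, with the scanner's significance flag as the filter, or past 1.5-fold.

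Normexp correction moved the values most: the mean difference of ZEB1 became 1.63 in place of 2.54, the largest bound of ZEB2 1.85-fold in place of 5.39-fold, and the mean of the 3 ZEB2 probes without a filter 0.77 in place of 3.22. It left 2 member probes past 2-fold higher, those of ZEB1, and the 5 Z-score calls. Its offset of 50 is added to every signal, which shrinks the ratio of signals below or near it. SNAI3 passed the lower Z-score limit (1 probe) under normexp (-2.85) and with an SD from the median absolute deviation (-2.33), and 1 member probe, that of SNAI3, was lower past a limit of 1.5-fold. Over all alternatives the means ran from 0.14 to 0.27 for SNAI1, 0.02 to 0.17 for SNAI2, -0.70 to -0.57 for SNAI3, 0.31 to 0.57 for TWIST1 and 0.50 to 0.71 for TWIST2. The median of the epithelial list stayed between -0.78 and -0.68. The medians for pluripotency, mesenchymal effectors, TGF-beta and mesendoderm changed sign under at least 1 alternative. The median over all genes ran from 0.03 (loess) to 0.12 (median centring). Signal over background limits ZEB2, SNAI2 and TWIST1.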
